A study of Mus musculus with 68 samples.

Results

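The 68 patch-clamped dopamine neurons of the ventral tegmental area were divided by whether they had a read of Kcnn3, the gene of the small-conductance calcium-activated potassium channel subunit SK3. Cells were selected on the Kcnn3 count itself: a cell with a count of at least 1 was taken as having Kcnn3, and 47 of 68 cells did (69.1%, exact Clopper-Pearson 95% interval 56.7% to 79.8%). The other 21 cells had a count of 0. RNA had been drawn through the recording pipette after a voltage-clamp measurement of the SK tail current (Patch-seq), and each library is 1 cell. There were 35 cells from WT mice and 33 from 3xTg mice, both 12 months old and of either sex. The 3xTg mice were homozygous for their introduced alleles, among them APPSwe and TauP301L, and the WT mice were a separate line bred on the same hybrid background and not littermates. The labels name no mouse for any cell. Each genotype was therefore taken as 1 sample, cells were not used as replicates, and no test of a difference is reported. An SD here is the spread of cells, and an interval covers counting error only.

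SK channels open when calcium binds to calmodulin, which is held on the channel itself, and the potassium that leaves the cell produces the afterhyperpolarization that follows an action potential. The channel complex also carries casein kinase 2, which phosphorylates the bound calmodulin and lowers the calcium sensitivity of the channel, and protein phosphatase 2A, which reverses this. In midbrain dopamine neurons SK3 is the main subunit, and its current sets the regularity of pacemaker firing. A neuron with no Kcnn3 read in its library need not lack the channel, because a transcript present in few copies is easily lost when the content of 1 cell is amplified. The number of genes detected in each cell, meaning genes with a count of at least 1, was therefore set beside the main comparisons.

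Per its methods the study kept only cells that were positive for Th, Slc6a3 and Slc18a2, so the presence of these markers was fixed by selection and does not check the label independently. These genes, which encode tyrosine hydroxylase, the dopamine transporter and the vesicular monoamine transporter, all had a count in 47 of 47 cells with Kcnn3 and in 21 of 21 cells without it. The lowest Th count in a cell without Kcnn3 was 844, in the 3xTg group. Total counts per cell ranged from 629480 to 1678620 with Kcnn3 and from 492505 to 1327370 without it, and were similar within WT, with medians of 985963 and 977795. In 3xTg the medians were 1208140 and 899814. The methods also call for cells negative for Pvalb, P2ry12, Tmem119 and Aldh1l1, which mark interneurons, microglia and astrocytes, but 10 of the 68 cells had a read of at least 1 of these genes.

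Kcnn3 (gene ID 140493) spans 152 kb on the forward strand of chromosome 3, at 89520164 to 89672494 in mm10. It was counted in 22 of 35 WT cells (62.9%, interval 44.9% to 78.5%) and in 25 of 33 3xTg cells (75.8%, interval 57.7% to 88.9%). Among cells with Kcnn3, counts ran from 9 to 438 with a median of 54.5 in WT, and from 10 to 249.9 with a median of 59 in 3xTg. No cell lay between 0 and 9, so the division did not turn on the exact minimum. The cells nearest to it were WT 67 with 9 counts and 3xTg 79 with 10. As CPM (counts per 1000000 counts of the cell), the lowest, median and highest values were 10.3, 56.8 and 368 in WT and 10.7, 54.9 and 149 in 3xTg. The medians were close, and the highest WT cell lay above every 3xTg cell. They chose the groups and are given as a description.

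The cells without Kcnn3 were unevenly placed among the label numbers, which lie in runs of 1 genotype and whose meaning is not stated. All 8 3xTg cells without Kcnn3 had numbers from 24 to 55, where 13 of 21 cells had Kcnn3 (61.9%). In 3xTg cells 76 to 92, 12 of 12 cells had it. WT cells 1 to 22 were divided into 9 with and 8 without, and WT cells 57 to 74 into 11 with and 4 without. Of WT cells 94 to 96, 2 had Kcnn3 and 1 did not. Any comparison within 3xTg is thus also, in part, a comparison of the 2 runs, except where it was repeated within the numbers 24 to 55.

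Cells without Kcnn3 had far fewer genes of any kind. In WT, cells with Kcnn3 had 4498 to 10039 genes detected (median 8046), and cells without it had 3770 to 8631 (median 5233). In 3xTg the corresponding values were 6349 to 10426 (median 9293) and 3695 to 8511 (median 5335.5). The medians differed by 2813 genes in WT and by 3957.5 in 3xTg. In WT the groups overlapped broadly, and 14 cells with and 10 cells without Kcnn3 shared the range from 4498 to 8631 genes. In 3xTg 7 of 8 cells without Kcnn3 lay below every cell with it, and the exception was 3xTg 40 with 8511 genes. The gap was present within each run that held both kinds of cell. It was 7195 against 5091 genes in WT cells 1 to 22, 8472 against 7114.5 in WT cells 57 to 74, and 9066 against 5335.5 in 3xTg cells 24 to 55. Depth did not move with it in WT. When 700471 counts were drawn from every cell, leaving out 7 cells with fewer, the medians were 7885 and 5063 genes in WT, and 8881 and 5512 in 3xTg. The 100 most counted genes took a larger share of the counts in cells without Kcnn3, with medians of 29.5% against 25.3% in WT and 27.8% against 24.4% in 3xTg.

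**Figure D1:**
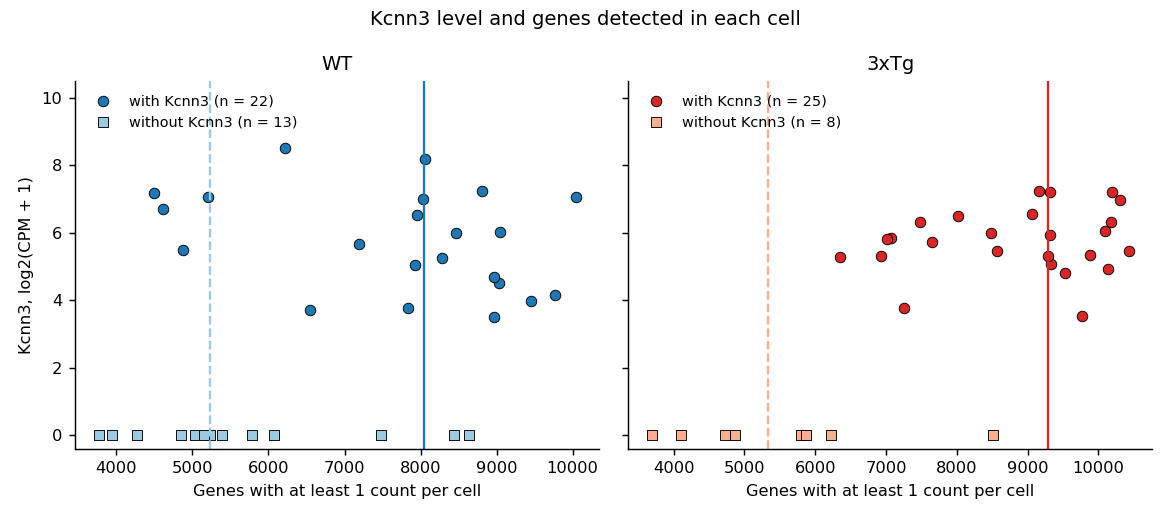
Kcnn3 level, as log2(CPM + 1), against the number of genes with at least 1 count, for each WT cell (left) and 3xTg cell (right); circles are cells with Kcnn3, squares cells without it, and the vertical lines mark the group medians (solid with, dashed without). The medians were 8046 and 5233 genes in WT and 9293 and 5335.5 in 3xTg, and cells without Kcnn3 gather on the left of both panels.

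A gap of this kind was not particular to Kcnn3. Of the other genes, 1707 were counted in 20 to 24 WT cells, close to the 22 of Kcnn3. Dividing the WT cells by each of these genes gave a median gap of 2869.5 genes (quartiles 2623 and 3114), close to the 2813 of Kcnn3. In 3xTg, 2094 genes were counted in 23 to 27 cells, and their median gap was 2952 genes (quartiles 2190 and 3361.5), below the 3957.5 of Kcnn3. Among the cells that had Kcnn3, its level did not follow the number of genes in the same way. Spearman's rho between Kcnn3 log2(CPM + 1) and genes detected was 0.31 over all 35 WT cells and -0.30 over the 22 with Kcnn3, and in 3xTg it was 0.57 over 33 cells and 0.14 over 25. Both measures come from the same library of each cell. Fewer transcripts in a cell and a poorer recovery of its RNA cannot be told apart in these values.

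To ask what else differed, the mean over cells of log2(CPM + 1) was compared between cells with and without Kcnn3 for each of 6208 genes counted in at least 50% of the cells of each genotype. A positive difference is a higher value with Kcnn3. Fewer than 50% of the cells of either genotype lacked Kcnn3, so a gene counted only in those cells could not pass the filter. Most genes were higher with Kcnn3. The median difference was 0.90 in WT, with 84.4% of genes above 0, and 1.18 in 3xTg, with 83.7% above 0. With 1 sample per group, a gene was called when the difference reached 1 in either direction, which is a 2-fold difference on this scale. In WT 2830 genes were called higher (45.6%) and 165 lower (2.66%), and in 3xTg 3424 were called higher (55.2%) and 146 lower (2.35%). In both genotypes 1987 genes were called higher (32%) and 28 lower (0.451%). The 1987 shared genes were 70.2% of those called higher in WT and 58% of those in 3xTg. For the lower genes the 28 were 17% and 19.2%, and 82 genes called lower in WT were called higher in 3xTg.

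This broad shift moved with the number of genes detected. When genes detected per cell was added as a term to a straight-line fit within each genotype, the median difference was -0.06 in WT and -0.02 in 3xTg. The genes called in both genotypes then numbered 355 higher (5.72%) and 176 lower (2.84%). In WT alone 812 were higher (13.1%) and 937 lower (15.1%), and in 3xTg 1773 were higher (28.6%) and 1784 lower (28.7%). In 3xTg only 1 cell without Kcnn3 lay in the range of genes detected of the cells with it. All 3xTg values with the term thus rest on a straight line drawn between groups that hardly overlapped, and cannot separate Kcnn3 from genes detected. Genes called in both genotypes both with and without the term numbered 332 higher (5.35%) and 6 lower (0.0966%). Across genes, the WT and 3xTg differences had a Pearson r of 0.36, which became 0.03 with the term; genes share cells and are not independent. Sums over cells weigh each count equally and are less affected by empty values. The log2 ratio of summed CPM had a median of 0.22 in WT and 0.16 in 3xTg, and an r of 0.13 between the genotypes. Over the cells that had a count of the gene, the median difference was 0.23 in WT, over 6190 genes with at least 3 such cells in each group, and 0.05 in 3xTg, over 5510 genes. Of these differences 60.2% and 52.3% lay above 0.

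**Figure D2:**
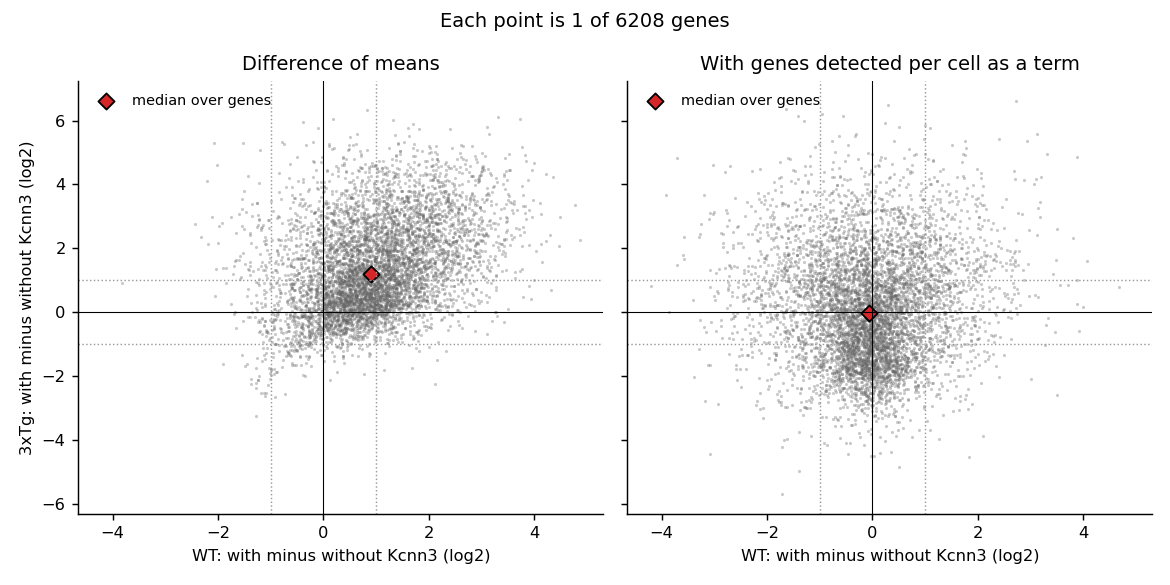
Difference in log2(CPM + 1), with minus without Kcnn3, for 6208 genes in WT (x axis) and 3xTg (y axis), as the difference of means (left) and with genes detected per cell as a term (right); dotted lines mark differences of 1 and -1. The cloud lies mostly above 0 on both axes on the left, with medians of 0.90 and 1.18, and is centred near 0 on the right, with medians of -0.06 and -0.02.

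The shift was not the same at every level of expression. Genes were put into 5 equal bins by mean CPM over all cells. The median difference was 0.69 in the lowest bin, 1.21 in bin 4 and 0.66 in the highest bin in WT. In 3xTg the values were 0.44, 2.08 and 1.17. In bin 4, with mean levels of 83.7 to 159 CPM, the median gene was counted in 96% of 3xTg cells with Kcnn3 and in 62.5% of those without it. With genes detected as a term the WT medians stayed between -0.10 and 0.00 in all 5 bins. In 3xTg they ran from -0.98 in the lowest bin to 0.78 in bin 4, so the term did not level the 3xTg comparison, in which only 8 cells lacked Kcnn3. The genes called higher in both genotypes had a median span of 26.3 kb and the 28 lower genes 27.1 kb, against 21.6 kb over all genes tested.

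**Figure D3:**
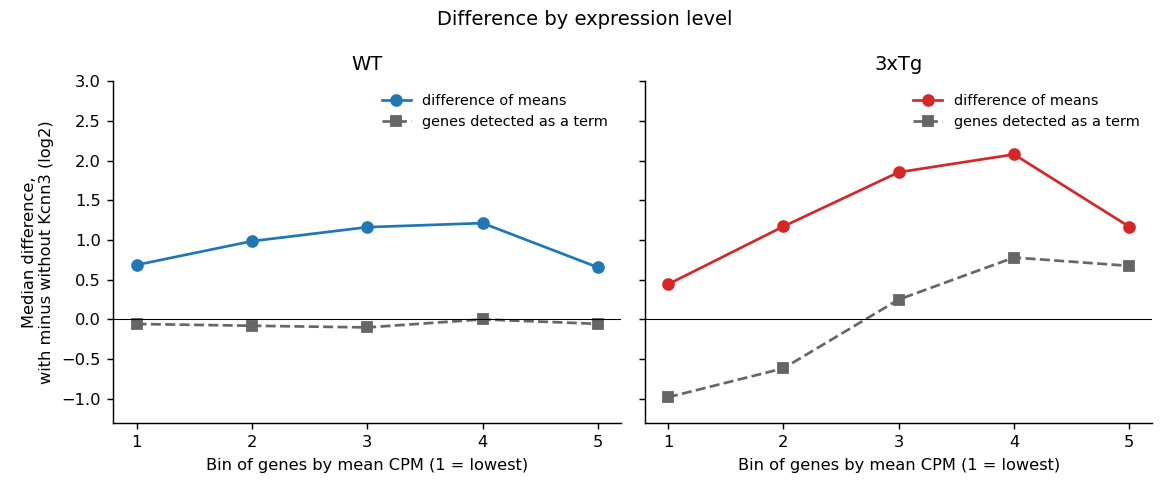
Median difference in log2(CPM + 1), with minus without Kcnn3, in 5 bins of the 6208 genes ordered by mean CPM, for WT (left) and 3xTg (right); circles are differences of means and squares have genes detected per cell as a term. Bin 4 was highest in both genotypes (1.21 and 2.08), and with the term the WT values lay near 0 while those of 3xTg ran from -0.98 to 0.78.

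Against this background, a group of genes was much higher with Kcnn3 in both genotypes by the difference of means and the difference with the term, and had the same direction by the ratio of sums. The 10 with the largest smaller-of-2 difference were F2r, Tppp, Far1, Abhd16a, Ptcd3, Ncs1, Elovl5, Nap1l2, Cops2 and Mrpl36. They were counted in 77.3% to 95.5% of WT cells with Kcnn3 and 15.4% to 46.2% of those without it, and in 80% to 100% against 12.5% to 50.0% of 3xTg cells. They thus passed the filter mainly through the cells with Kcnn3. Their differences were 3.73 to 4.36 in WT and 3.66 to 6.04 in 3xTg, where the median gene had 0.90 and 1.18. With genes detected as a term they were 1.28 to 3.88 in WT and 1.84 to 6.62 in 3xTg, where the groups hardly overlapped in genes detected. The log2 ratios of sums, which lay above 0 by the rule of selection, were below 1 for Ncs1 (0.77) and Mrpl36 (0.96) in WT and for Tppp (0.81) in 3xTg. Ranked genes had to have the same direction by the difference, with the term and from sums in both genotypes. That agreement was thus fixed in advance, and the size of the differences, by which the genes were ranked, is a description. Among 3xTg cells at or above the median of genes detected, of which 1 lacked Kcnn3, the direction was the opposite for Abhd16a (-1.02), Ptcd3 (-0.48) and Mrpl36 (-0.25).

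F2r, which encodes the thrombin receptor PAR1, stood at the head of this ranking. In WT cells with Kcnn3 its lowest, median and highest values were 0, 165 and 1497 CPM, and in those without it 0, 0 and 219 CPM. In 3xTg the values were 0, 91.8 and 528 CPM with Kcnn3 and 0, 0 and 113 CPM without it. The groups overlapped at 0 and in the lower range, and the highest cells with Kcnn3 lay above every cell without it in both genotypes. F2r was counted in 18 of 22 against 4 of 13 WT cells and in 23 of 25 against 2 of 8 3xTg cells. The mean log2(CPM + 1) was 5.70 ± 3.63 (SD, n = 22) against 1.47 ± 2.66 (n = 13) in WT, and 5.40 ± 2.89 (n = 25) against 1.07 ± 2.40 (n = 8) in 3xTg. Summed over cells, it had 257 CPM with Kcnn3 in WT (exact Poisson 95% interval 250.4 to 264) and 22.7 without it (20.2 to 25.6). In 3xTg the sums were 115 (112 to 119) and 17.3 (14.4 to 20.6), and 98% of the latter came from 3xTg 24. Its difference was 4.22 in WT and 4.33 in 3xTg, and 3.88 and 4.84 with the term. The direction held in each run: 7 of 9 against 3 of 8 in WT cells 1 to 22, 10 of 11 against 1 of 4 in WT cells 57 to 74, and 12 of 13 against 2 of 8 in 3xTg cells 24 to 55. Within the WT range of genes detected that both groups shared, it was counted in 11 of 14 and 3 of 10 cells.

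Cops2, a subunit of the COP9 signalosome, which removes NEDD8 from cullin ubiquitin ligases, had the largest 3xTg difference of the 10 genes. All 25 3xTg cells with Kcnn3 had it, at 41.4 to 496 CPM (median 172). Of the 8 cells without Kcnn3, 2 had a count, and 3xTg 38, at 407 CPM, held 99.6% of the sum. In WT its median was 100.1 CPM with Kcnn3, where 21 of 22 cells had a count, and 0 without it, where 6 of 13 did. Ncs1, which encodes the neuronal calcium sensor that binds the dopamine D2 receptor among other targets, was counted in 21 of 22 against 6 of 13 WT cells and in 24 of 25 against 4 of 8 3xTg cells. Its summed CPM was 332 against 195 in WT and 404 against 179 in 3xTg. The log2 ratios of these sums, 0.77 and 1.18, were far below its mean differences of 3.84 and 4.75. Where Ncs1 was present in a cell without Kcnn3, it could thus be as high as in the other cells, with maxima of 561 CPM in WT and 907 CPM in 3xTg.

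The other genes of this group belong to several processes. Far1 and Elovl5 act in lipid synthesis, the former in the peroxisomal route to ether lipids and the latter as an elongase of polyunsaturated fatty acids. Far1 was counted in 18 of 22 against 3 of 13 WT cells and in 20 of 25 against 2 of 8 3xTg cells. Elovl5 was counted in 23 of 25 against 1 of 8 3xTg cells, but in WT cells 57 to 74 it was counted in 11 of 11 and in 4 of 4. Ptcd3 and Mrpl36 encode proteins of the mitochondrial ribosome, Tppp binds tubulin, Abhd16a is a phosphatidylserine lipase, and Nap1l2, on the X chromosome, is a neuronal nucleosome assembly protein. Tppp had a log2 ratio of summed CPM of 2.40 in WT and 0.81 in 3xTg, and 57% of its sum over 3xTg cells without Kcnn3 came from 3xTg 26.

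**Figure D4:**
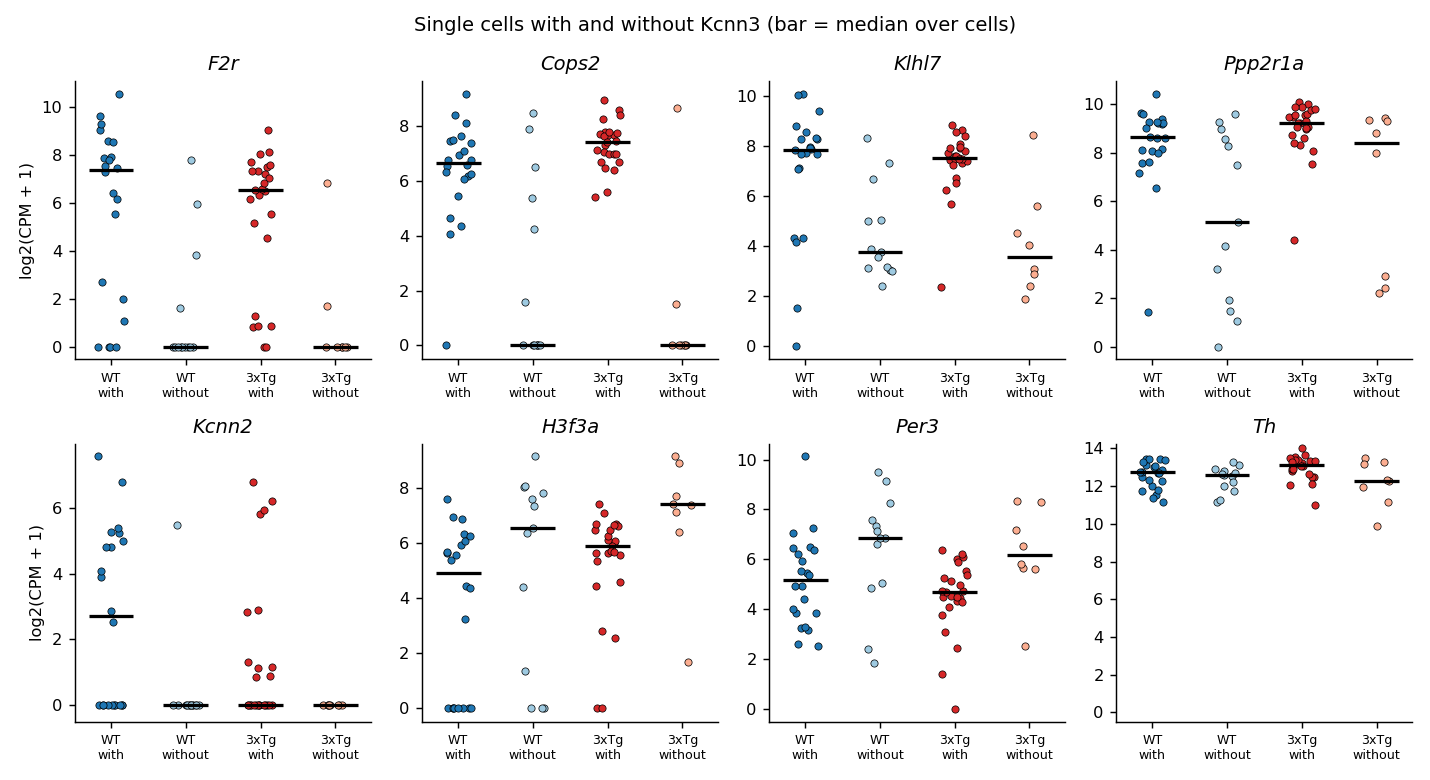
log2(CPM + 1) of 8 genes in each cell, in the 4 groups of cells with and without Kcnn3 (22, 13, 25 and 8 cells from left to right); each point is 1 cell and each bar the median over cells. F2r and Cops2 have medians of 0 in the cells without Kcnn3 of both genotypes, Klhl7 is counted in all of those cells but at a lower level, H3f3a and Per3 lie higher without Kcnn3, and the Th values overlap.

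The genes whose pattern was most like that of Kcnn3 were sought over cells, as the Spearman rho of log2(CPM + 1) after the straight-line part due to genes detected was taken out. The 5 with the highest smaller-of-2 rho over 35 WT and 33 3xTg cells were P4htm (0.49 and 0.59), Txndc15 (0.46 and 0.45), Psmd5 (0.41 and 0.56), Klhl7 (0.41 and 0.47) and Ly6h (0.47 and 0.40). The cells share libraries and the rule divided them by the same gene, so these values are a description. In 3xTg the log2 ratio of summed CPM was below 0 for Psmd5 (-0.97), Ly6h (-0.028) and Txndc15 (-0.018), and above 0 for P4htm (8.09) and Klhl7 (2.00). P4htm encodes a transmembrane prolyl hydroxylase, Txndc15 a thioredoxin-domain protein, Psmd5 a chaperone of proteasome assembly, Klhl7 an adaptor of the cullin ubiquitin ligases and Ly6h a small surface protein that modulates nicotinic receptors. P4htm had 0, 129 and 370 CPM (lowest, median and highest) in 3xTg cells with Kcnn3 and at most 2.71 CPM in those without it. In WT it reached 231 CPM in cells without Kcnn3, and 6 of 13 of them had a count.

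Klhl7 differed from the others in that its presence did not move with Kcnn3, while its level did. It was counted in 21 of 22 and 13 of 13 WT cells and in 25 of 25 and 8 of 8 3xTg cells. Its lowest, median and highest values in WT were 0, 230 and 1083 CPM with Kcnn3 and 4.29, 12.8 and 316 CPM without it. In 3xTg they were 4.15, 181 and 457 CPM against 2.75, 11.7 and 342 CPM. The highest cells without Kcnn3 reached into the range of those with it, but their medians were far lower. The difference was 2.55 in WT and 3.24 in 3xTg, and 1.83 and 1.58 with the term. Among the cells with Kcnn3 only, the rho between the Klhl7 and Kcnn3 levels was 0.41 over 22 WT and 0.28 over 25 3xTg cells. For Txndc15 it was 0.50 and 0.36, for Psmd5 0.48 and -0.03, for P4htm 0.32 and -0.0015, and for Ly6h 0.26 and 0.15, so in 3xTg the values of P4htm and Psmd5 lay near 0. Over all 6208 genes this rho had a median of -0.08 in WT and 0.05 in 3xTg, with 10th and 90th percentiles of -0.33 and 0.18 in WT and -0.24 and 0.28 in 3xTg. For the 10 genes at the head of the ranking it ran from -0.24 to 0.23 in WT and from -0.58 to 0.28 in 3xTg, with no common direction.

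Genes with 1 direction in both genotypes by the difference of means, the difference with the term and the ratio of sums, at any size, numbered 836 higher and 192 lower with Kcnn3. Of the lower genes, the 10 furthest below 0 in both genotypes were Runx1t1, H3f3a, 4921517D22Rik, C030029H02Rik, Nfib, Mn1, Tmf1, Ggt5, Piwil1 and Per3. Runx1t1, Nfib and Mn1 encode regulators of transcription, H3f3a a replication-independent histone H3, Tmf1 a Golgi protein, Ggt5 a member of the gamma-glutamyltransferase family, Piwil1 a protein that binds small RNAs of the germline and Per3 a component of the circadian clock. The differences were -1.91 to -1.27 in WT and -3.26 to -1.35 in 3xTg, and with the term -2.30 to -0.34 and -1.86 to -0.49. The term brought Ggt5 in WT from -1.29 to -0.34 and Runx1t1 in 3xTg from -1.61 to -0.49. Without WT 16 the WT differences of Ggt5 and Piwil1 were -0.90 and -0.92. Mn1, Tmf1 and C030029H02Rik were counted in every cell of all 4 groups. Per3 had 4.82 to 1116 CPM in WT cells with Kcnn3 (median 35.2) and 2.64 to 728 CPM without it (median 115). In 3xTg it had 0 to 82.2 CPM with Kcnn3 (median 25.2) and 4.85 to 320 CPM without it (median 74.1). The WT ranges overlapped over most of their length, and in 3xTg the highest cells without Kcnn3 lay above every cell with it. Its difference was -1.27 in WT and -1.76 in 3xTg, and -1.59 and -1.86 with the term.

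A few cells held the highest values of most of these genes. WT 17 held the highest value of 8 of the 10 genes among WT cells with Kcnn3, WT 16 held it for 8 among those without, and 3xTg 43 for 9 among the 3xTg cells without it. These 3 cells had 4870, 5154 and 4870 genes detected, and the 100 most counted genes took 33.2%, 32% and 36.6% of their counts. WT 17 and 3xTg 43 also had reads of markers of other cells, among them Tmem119, Pvalb and P2ry12, for which the study's selection required cells to be negative. Their part in these values was not tested. WT 17 was the one cell of all 68 with a count of the microglial gene Tmem119 (439 CPM) and held 91.3% of the counts of the interneuron gene Pvalb over WT cells with Kcnn3. 3xTg 43 held 100% of the Csf1r, 64.7% of the P2ry12, 67.8% of the C1qa and 97.5% of the C1qb counts of the 3xTg cells without Kcnn3. For Ggt5 72% of the sum over WT cells with Kcnn3 came from WT 17. When the 3 cells were left out together, 24 genes in place of 28 were called lower in both genotypes and 1945 in place of 1987 higher. Leaving out WT 16 alone gave 15 lower genes, and leaving out 1 other cell at a time gave up to 38, without WT 17. H3f3a had medians of 31 CPM with and 92.3 CPM without Kcnn3 in WT and 59.1 against 169.5 CPM in 3xTg. Among WT cells at or above the median of genes detected, of which 3 lacked Kcnn3, the H3f3a difference was 0.95 in the other direction. H3f3a has near-identical copies in the genome, to which reads could have been divided, and its value is uncertain for that reason.

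Genes of the SK channel complex showed no common direction. Of the 12 listed, 9 passed the filter, and 2 of them, Ppp2r1a and Csnk2b, were called higher in both genotypes by the difference of means and with the term (32% and 5.72% of all genes). The median over the 9 was 0.10 in WT and 0.26 in 3xTg, below the 0.90 and 1.18 of all genes tested. Ppp2r1a, the scaffold subunit of protein phosphatase 2A, had lowest, median and highest values of 1.72, 399 and 1381 CPM in WT cells with Kcnn3 and 0, 34 and 768 CPM in those without it. In 3xTg they were 20.3, 596 and 1088 CPM against 3.64, 350.4 and 695 CPM. The groups overlapped, and the highest cells without Kcnn3 lay within the range of the cells with it. The differences were 3.00 and 2.45, with the term 2.63 and 1.12, and as ratios of sums 0.94 and 0.90. Among cells that had Kcnn3, rho with its level was -0.49 in WT and -0.22 in 3xTg. Csnk2b, the regulatory subunit of casein kinase 2, had medians of 96.7 against 1.75 CPM in WT and 95 against 1.36 CPM in 3xTg, with sums of 111 against 100.5 and 111 against 93.2 CPM. Its difference in means, 2.07 and 3.23, thus came with a ratio of sums of 0.14 and 0.25.

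Csnk2a1, the main catalytic subunit of casein kinase 2, was counted in every cell of all 4 groups. Its medians were 43.2 CPM with and 37.1 CPM without Kcnn3 in WT, and 59.4 and 66.9 CPM in 3xTg, and its ranges overlapped over most of their length. The differences were 0.18 and 0.19, and with the term -0.69 and 0.67. Leaving out 1 cell turned the direction, to -0.09 without WT 72 and -0.24 without 3xTg 42. Csnk2a2, the other catalytic subunit, was sparse, with 14 of 22 against 3 of 13 WT cells and 19 of 25 against 2 of 8 3xTg cells, and its differences of 1.11 and 1.59 became -0.16 and -0.00077 with the term, while its ratios of sums were 1.83 and 4.59. Ppp2ca, a catalytic subunit of protein phosphatase 2A, differed by -1.22 in WT and -0.26 in 3xTg, and its summed CPM was 31.2 against 95 and 34.3 against 190.2. With the term it was -2.58 and -1.66, the 1 member of the complex called lower in both genotypes by that measure (2.84% of all genes). In WT cells 57 to 74, however, its difference was 1.63, without WT 96 the WT value was -0.74, and without 3xTg 38 the 3xTg value was 0.49, in the other direction. Ppp2cb, the other one, gave -0.06 and 1.95, and -1.59 and 1.08 with the term.

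Calmodulin, the calcium sensor of the channel, was high in all groups. Calm2 had medians of 1368 CPM with and 2198 CPM without Kcnn3 in WT, and 2205.5 and 2283 CPM in 3xTg. The differences were -0.40 and -0.40 for Calm2, and 0.46 and 0.26 for Calm3. With the term Calm2 had -0.26 in WT and 0.18 in 3xTg, and Calm3 -0.17 and 0.0094. Leaving out 1 cell also turned the direction of Calm3, to -0.18 without WT 11 and -0.50 without 3xTg 24. Of the other SK subunits, Kcnn1 (SK1) was counted at a few CPM in most cells of each group and differed by 0.10 and 0.32, or by -0.58 and -1.79 with the term. Kcnn4 had no count in any cell. Kcnn2 (SK2) was sparse and did not pass the filter, and its reads lay almost only in cells that also had Kcnn3, which had more genes detected. It was counted in 12 of 22 against 1 of 13 WT cells and in 11 of 25 against 0 of 8 3xTg cells, where 0 of 8 allows a share of up to 37.5% (3 cells of the total), a limit on cells with a read and not on cells that express the gene. Summed, it had 24.3 CPM with (22.2 to 26.4) and 2.64 CPM without Kcnn3 (1.83 to 3.74) in WT, where all of the latter came from WT 68, a cell with 8441 genes detected. In 3xTg the sum was 11.8 CPM with Kcnn3, and the log2 ratio was at least 4.85 with the other group set to a floor of 3 counts over its cells. Within runs the cells with a count were 5 of 9 against 0 of 8, 7 of 11 against 1 of 4, and 7 of 13 against 0 of 8. In the WT range of genes detected that both groups shared, they were 5 of 14 against 1 of 10. The Kcnn2 differences of 2.23 in WT and 1.43 in 3xTg were 0.82 and 2.59 with the term. With genes detected taken out, the rho of Kcnn2 with Kcnn3 was 0.23 and 0.08. Such a pattern was not particular to Kcnn2, as Itpr1 and Kcnj6 were each counted in 64% against 0% of 3xTg cells. The share over all genes as sparse was not worked out. The subunit genes are related in sequence, and reads could have been divided between them.

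**Figure D5:**
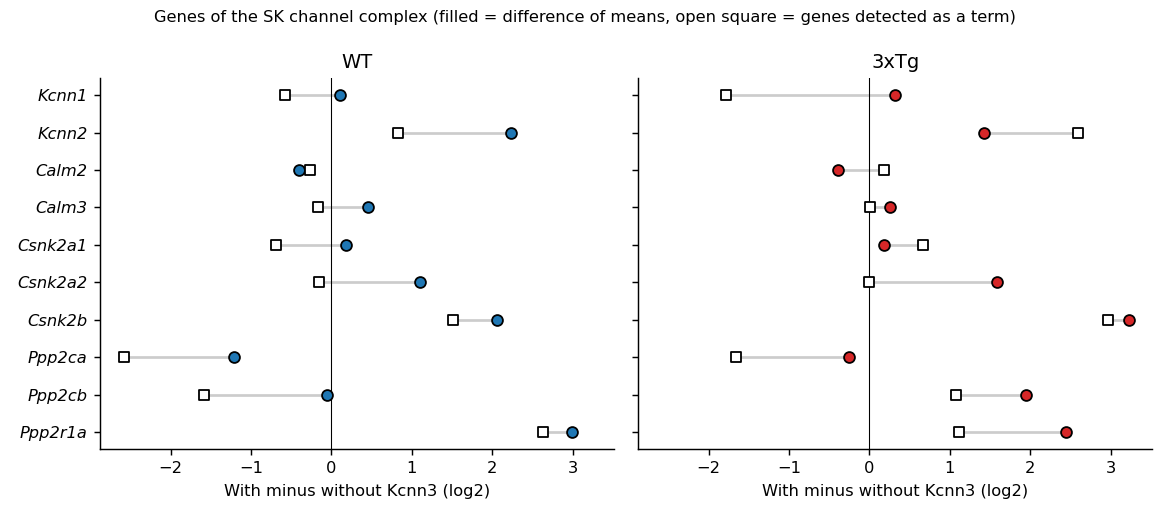
Difference in log2(CPM + 1), with minus without Kcnn3, for 10 genes of the SK channel complex in WT (left) and 3xTg (right); filled circles are differences of means and open squares have genes detected per cell as a term. Ppp2r1a and Csnk2b stayed above 1 by both measures in both genotypes, Calm2 lay at -0.40 in both as a difference of means and at 0.18 in 3xTg with the term, and Ppp2ca lay below 0 by both measures in both genotypes.

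Among genes of calcium entry and stores, which supply the calcium that opens SK channels, 8 of 19 passed the filter. In WT 5 were called higher (45.6% over all genes) and in 3xTg 5 (55.2%), and 3 were called in both (32%), with medians of 1.60 and 1.33. With the term 1 was higher in both (5.72%), Atp2b1, a plasma membrane calcium pump, which differed by 2.27 and 2.15, and by 1.38 and 1.40 with the term. The log2 ratio of its sums was -0.31 in WT and -1.50 in 3xTg, so its direction depended on the measure. Cacnb4, an auxiliary subunit of voltage-gated calcium channels, was counted in 18 of 22 against 6 of 13 WT cells and in 22 of 25 against 2 of 8 3xTg cells, and differed by 2.15 and 4.94, or by 0.58 and 4.23 with the term. In WT its sums were nearly the same, 125 and 119 CPM, because WT 14 held 57% of the latter. Cacna1a, the P/Q-type channel, differed by 2.33 in WT and 0.81 in 3xTg, and by 0.07 and -3.43 with the term. Itpr1, the IP3 receptor that releases stored calcium, was below the filter and was counted in 13 of 22 against 2 of 13 WT cells and 16 of 25 against 0 of 8 3xTg cells. Its differences were 1.85 and 2.88, and 0.55 and 2.83 with the term.

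Of 26 pacemaking and repolarizing channel genes in the table, 14 passed the filter. In WT 9 were called higher (45.6% over all genes) and 0 lower, and in 3xTg 5 higher (55.2%) and 1 lower, so the 3xTg share was below that of all genes. With the term 2 were higher (13.1% over all genes) and 1 lower (15.1%) in WT, and 4 were higher (28.6%) and 8 lower (28.7%) in 3xTg. Dpp6, an auxiliary subunit of the A-type Kv4 channels, was the member called higher in both genotypes with the term too. Its medians were 157 against 11.4 CPM in WT and 278 against 62.4 CPM in 3xTg. Its differences were 2.87 and 3.34, and 2.01 and 2.74 with the term. Scn1a, a sodium channel, differed by 2.92 and 2.15 and by 1.66 and -0.42 with the term. Kcnc1 (Kv3.1), a fast delayed rectifier, was counted in all cells and was lower with Kcnn3, by -0.55 in WT and -1.22 in 3xTg, and by -0.37 and -2.37 with the term. Without 3xTg 42 the 3xTg difference was -0.80. Kcnj6 (GIRK2), the channel through which D2 receptors act, was counted in 15 of 22 against 2 of 13 WT cells and in 16 of 25 against 0 of 8 3xTg cells, but its differences of 2.33 and 2.71 were 0.26 and -0.09 with the term.

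Among the dopaminergic identity genes, the presence of Th, Slc6a3 and Slc18a2 was set by selection of the cells, and their levels are given here. Of 15 identity genes 9 passed the filter, 4 were called higher in WT (45.6% over all genes), 3 in 3xTg (55.2%) and 1 in both (32%). Their medians of 0.70 and 0.75 lay below the 0.90 and 1.18 of all genes. With the term the order turned round, with medians of 0.41 and 0.55 against -0.06 and -0.02. The identity genes were not matched for level, however. In 3xTg the median with the term was 0.78 in bin 4 by mean CPM and 0.67 in the highest bin, above the 0.55. In WT these bins had 0.00 and -0.06. Th had 2297 to 11074 CPM (median 6786) in WT cells with Kcnn3 and 2313 to 10112 CPM (median 6122) in those without it. In 3xTg it had 2020 to 16862 CPM (median 9026) and 949 to 11655 CPM (median 4989). The differences were 0.18 in WT (0.08 without WT 68) and 0.80 in 3xTg (0.47 without 3xTg 42), and the ranges overlapped. Slc6a3 differed by 0.66 and 1.29 (0.92 without 3xTg 24), and Slc18a2 by 1.23 (0.70 without WT 11) and 0.75 (0.44 without 3xTg 43). Ddc, the decarboxylase that forms dopamine, differed by 0.70 (0.14 without WT 96) and 0.24 (0.0071 without 3xTg 39). Nr4a2, a transcription factor that maintains the dopaminergic phenotype, was the gene called in both. Its medians were 212 against 60.6 CPM in WT and 300.1 against 48.2 CPM in 3xTg, and its differences were 1.61 and 3.43, or 1.62 and 3.48 with the term. The 3xTg sums, however, were 335 and 265 CPM. Drd2, the D2 autoreceptor, was counted in 9 of 22 against 4 of 13 WT cells and in 21 of 25 against 1 of 8 3xTg cells, and the latter was 3xTg 40, the cell without Kcnn3 that had the most genes of its group.

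Genes used to divide dopamine neurons into subtypes gave no shared pattern. Of 21 listed 11 passed the filter, 2 were called higher (32% over all genes) and 1 lower (0.451%) in both genotypes, with medians of 0.45 and 0.20. With the term 1 was higher and 0 lower in both, with medians of 0.12 and -0.22. The one lower by the difference of means was Aldh1a1, a retinoic acid synthesizing enzyme of ventral dopamine neurons. It had medians of 445 against 716 CPM in WT and 17.7 against 1562 CPM in 3xTg, and ranged from 0 to at least 2519 CPM in every group. Its differences were -1.27 and -1.45, and -1.20 and -0.52 with the term. They fell short of the threshold of 1 without WT 1 (-0.94) and without 3xTg 24 (-0.78). The ratio of sums was 0.90 in WT, so the WT direction depended on the measure. Calb1, the calcium buffer calbindin, differed by -1.11 in WT (-0.71 without WT 8) and -0.29 in 3xTg, and by -1.06 and 0.35 with the term. Slc17a6 and Otx2, markers of glutamate co-release and of ventral tegmental subtypes, were sparse. Their reads lay mainly in cells with Kcnn3, which had more genes detected. Slc17a6 was counted in 5 of 22 against 1 of 13 and in 8 of 25 against 0 of 8 cells, with differences of 1.24 and 1.04 with the term. In the WT range of genes detected that both groups shared, Slc17a6 was counted in 2 of 14 against 1 of 10 cells and Otx2 in 3 of 14 against 0 of 10. With genes detected taken out, rho with Kcnn3 was 0.12 in WT and -0.05 in 3xTg for Slc17a6, and 0.10 and -0.10 for Otx2. Otx2 was counted in 7 of 22 against 0 of 13 cells, which allows a share of cells with a read of up to 23.1% (3 cells of the total), and in 7 of 25 against 1 of 8, with differences of 0.996 and 0.68 with the term.

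Synaptic receptor genes were mostly higher with Kcnn3. Of 17 that passed the filter 11 were called higher in both genotypes (32% over all genes), with medians of 1.53 and 1.97, and 0 were called lower in both. With the term 4 were higher (5.72% over all genes) and 1 lower (2.84%) in both. Gabbr1, a subunit of the metabotropic GABA receptor, had medians of 181 against 33.2 CPM in WT and 167 against 10.1 CPM in 3xTg, with differences of 2.15 and 3.06, and of 1.40 and 1.41 with the term. Gabra3, an ionotropic GABA receptor subunit, differed by 1.53 and 3.48, and by 1.17 and 2.39 with the term. Over cells at or above the median of genes detected, Gabra3 had the opposite direction, at -2.29 in WT and -0.68 in 3xTg, and Gabbr1 was -0.24 in 3xTg. Only 3 WT cells and 1 3xTg cell there lacked Kcnn3. Chrna6, the nicotinic subunit typical of dopamine neurons, went in different directions, at -1.07 in WT (-0.66 without WT 57) and 1.93 in 3xTg (0.80 without 3xTg 24), and at -2.19 and 0.90 with the term. The difference between the genotypes was not tested.

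Immediate early genes, which respond to activity and handling, had 4 of 10 members past the filter. Jun and Dusp1 were called higher in both genotypes without the term (32% over all genes) and both with and without it (5.35%), Jun by 2.93 and 2.60 and Dusp1 by 1.86 and 5.05. In 3xTg the ratios of sums were -0.11 and -0.56, since 3xTg 38 held 76% of the Jun sum and 3xTg 24 held 72% of the Dusp1 sum without Kcnn3. All 16 glycolytic genes passed the filter, with 5 higher in both (32% over all genes), and medians of 0.10 in WT and 1.28 in 3xTg. Pfkm, muscle-type phosphofructokinase, was higher by 3.44 and 3.84, and by 2.06 and 4.36 with the term. Its ratio of sums was 1.92 in WT but 0.05 in 3xTg. Gapdh differed by 0.07 and 0.55 and Aldoc by -1.08 (-0.78 without WT 9) and 2.25. Ribosomal protein genes had medians of 0.06 and 0.37 over 16 genes, and of -0.15 and 0.54 with the term. Of the nuclear long noncoding RNAs 6 of 6 were called higher in WT (45.6% over all genes, median 1.65) and 2 in 3xTg (55.2%, median 0.49). With the term 1 was called higher in WT (13.1% over all genes, median 0.59), and in 3xTg 0 were called higher (28.6%) and 5 lower (28.7%, median -2.96). Malat1, which stays in the nucleus, took a median of 2.19% of counts with and 1.02% without Kcnn3 in WT, and 1.04% and 1.46% in 3xTg. Of the sex-linked genes 2 passed the filter, with medians of 1.63 in WT and -0.11 in 3xTg, and of 0.60 and -2.41 with the term.

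Markers of other cells were present in both groups and their part in these differences was not tested. Over the 8 microglial genes, summed CPM ran from 1.71 to 2976 (median 155.5) in WT cells with Kcnn3 and from 0 to 5142 (median 137) in those without it. In 3xTg it ran from 8.65 to 626 (median 134) and from 0 to 7138 (median 140). C1qb was counted in 6 of 22 against 7 of 13 WT cells, with sums of 121 and 671 CPM. Csf1r had 1.84 against 50.7 CPM in WT and 0.986 against 54 CPM in 3xTg, where 3xTg 43 held all of the latter. Both were below the filter. The 7 astrocyte markers summed to medians of 519.8 and 525 CPM in WT and 401 and 240 CPM in 3xTg, Aldh1l1 had no count in any cell, and Slc1a2, which was counted in every cell, made up part of the sum. Oligodendrocyte markers had medians of 54.8 and 141 CPM in WT and 49.5 and 30.8 CPM in 3xTg, and endothelial markers at most 1.36 CPM in any cell. Without the 10 cells that had a marker of another type, 1983 genes were called higher and 36 lower in both genotypes, and the median differences were 0.82 in WT and 1.29 in 3xTg.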

How the data were processed

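Contents of single patch-clamped neurons had been reverse-transcribed from poly(A) RNA and amplified by 28 PCR cycles. Using Strand NGS, the authors trimmed reads, mapped them against mm10 RefSeq transcripts (identity of 90% or more), removed duplicates and deposited estimated counts per gene for 36172 genes (55.3% of values above 0 were not whole, tolerance 0.001). The deposited log2 values, which the authors normalized (DESeq2 and mm10 are named in the submitters' processing notes), served as an alternative.

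Counts were divided by each cell's total (492505 to 1678620), without rounding. Differences are of mean log2(CPM + 1) over cells, within a genotype, with Kcnn3 left out of the 6208 genes tested. The term was genes detected per cell in a least-squares line. Sums used a floor of 3 counts per group. Members, lists and tests were chosen with earlier results of these data known. Named genes were the list members, the 10 highest and 10 lowest by the smaller of the 2 genotype differences with one direction by the difference, with the term and from sums, and the 5 most like Kcnn3. Genes within lists were picked for the text after their values were seen. The lists covered the SK complex, calcium, pacemaking, dopaminergic identity and subtypes, synaptic receptors, immediate early, glycolytic, ribosomal, nuclear noncoding and sex-linked genes, and markers of glia (microglia, astrocytes, oligodendrocytes), of endothelium and of GABA or glutamate neurons. GABA markers had 1 gene past the filter (0.21 and 0.28) and glutamate markers 1 (1.89 and 0.38). Doublets were not called and cells were not clustered. The calculations were tested on simulated data. Python 3.11.15, numpy 2.4.6, scipy 1.17.1, pandas 2.3.3, matplotlib 3.10.9, R 4.3.3 and edgeR 4.0.16 (TMM) were used. A few list members and 1 allele are not reported here.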

Additional observations from a re-analysis of the deposited data

Results flagged for a closer look

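Values in the 8 3xTg cells without Kcnn3 were examined for a cell far from the others, and 13 of 66 values had one by Dixon's criterion. The criterion served as a flag and not as a test. Values share the same cells and hold many zeros, and a gene counted in 1 of the 8 cells is flagged by that alone. No chance rate therefore applies. The other groups hold more than 10 cells and were not examined. All values are log2(CPM + 1). The highest cell stood apart for Csf1r (9.16 in 3xTg 43, next 0), Cops2 (8.67 in 3xTg 38, next 1.5), Cacnb4 (7.60 in 3xTg 39, next 2.46), F2r (6.83 in 3xTg 24, next 1.7), Elovl5 (5.21 in 3xTg 39, next 0), Drd2 (4.11 in 3xTg 40, next 0) and Otx2 (1.5 in 3xTg 24, next 0). The lowest cell stood apart for Ddc (9.01 in 3xTg 39, next 10.46), Slc6a3 (8.56 in 3xTg 24, next 10.79), Calm3 (3.46 in 3xTg 24, next 8.45), Per3 (2.55 in 3xTg 38, next 5.61), H3f3a (1.66 in 3xTg 50, next 6.39) and 4921517D22Rik (0 in 3xTg 50, next 3.62). 3xTg 24, which had the fewest genes detected of all cells (3695), accounts for 4 of these values.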

How the results depend on the processing

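No paired analysis was possible because the labels name no mouse for any cell, and no test of a difference was made. With genes detected as a term the median difference was -0.058 in WT and -0.016 in 3xTg. Over cells at or above the median of genes detected (3 WT cells and 1 3xTg cell without Kcnn3) it was -0.034 and -0.39, and over the shared range of genes detected 0.28 in WT and -0.97 in 3xTg, again with 3xTg 40 alone. In WT cells 57 to 74 it was 0.37. In 3xTg it was 1.89 and 0.52 with pseudocounts of 0.1 and 10, 0.16 from sums and 0.51 over all genes with a count. DESeq2 size factors moved the WT median from 0.90 to 0.63 and TMM factors the 3xTg median from 1.18 to 1.38, so that the difference of a gene is relative to the median gene. Leaving out 1 cell gave 0.79 to 1.05 in WT and 1.01 to 1.42 in 3xTg.

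The genes higher in both numbered 625 with a pseudocount of 10, 408 from sums, 355 with the term, 417 above the median of genes detected, 3300 and 1134 with filters at 20% and 80% of cells, 3387 over all genes, 571 at a difference of 2 and 299 in the shared range, and 1788 to 2157 with 1 cell left out. The genes lower in both numbered 54 with DESeq2 size factors, 9 with a pseudocount of 10, 91 from sums, 176 with the term, 283 above the median, 64 with the authors' normalized values, 0 at a difference of 2, 207 in the shared range, and 15 (without WT 16) to 38 (without WT 17) with 1 cell left out. All 3xTg cells of the second run (100%) had Kcnn3.

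Of 2112 values of 64 named genes under alternatives, 49 were at least 1 in size in the main calculation and changed sign or, for Csf1r in WT cells 57 to 74, became 0. Of the rest, in which sign changes of smaller values were not counted, 1991 moved by less than 1 SD over cells and 72 by more. With the term, Csnk2a2 was -0.16 in WT and -0.00077 in 3xTg, Scn1a -0.42 and Kcnj6 -0.090 in 3xTg. From sums, Aldh1a1 was 0.90 and Atp2b1 -0.31 in WT, and Atp2b1 -1.50, Txndc15 -0.018, Psmd5 -0.97, Ly6h -0.028, Jun -0.11 and Dusp1 -0.56 in 3xTg. Thinned, Aldh1a1 was 0.025 in WT. Over cells above the median of genes detected, WT values were 0.95 for H3f3a, 0.18 for 4921517D22Rik, 0.37 for Piwil1, -1.06 for Csnk2a2, -2.05 for Drd2, 0.43 for Aldh1a1, -0.11 for Cacna1a, -2.29 for Gabra3, 0.42 for Chrna6 and -0.039 for Malat1, and 3xTg values -1.02 for Abhd16a, -1.07 for Atp2b1, -1.68 for Ppp2cb, -0.48 for Ptcd3, -0.25 for Mrpl36, -0.21 for Ppp2r1a, 6.07 for Aldh1a1, -0.33 for Scn1a, -0.68 for Gabra3 and -0.24 for Gabbr1. In the shared range 3xTg values were -1.23 for Abhd16a, -1.67 for Atp2b1, -1.58 for Ppp2cb, -0.78 for Ptcd3, -0.59 for Csnk2a2, -0.52 for Ppp2r1a, -0.14 for Drd2, 5.67 for Aldh1a1, -2.39 for Scn1a, -0.61 for Gabra3 and -1.63 for Gabbr1. In WT cells 57 to 74 they were 1.63 for Ppp2ca, -0.37 for Cacna1a, 0.37 for Aldoc, -0.47 for Malat1 and 0.00 for Csf1r. The cause was not tested. The shared range, the authors' values, leaving out the 3 leading cells, and leaving out cells for genes detected were chosen after seeing the data. With 8 cells without Kcnn3 in 3xTg, single cells set its medians, and a gene counted in few cells was not resolved.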
